A study of Mus musculus with 12 samples.

Results

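Antiviral restriction factors are host proteins that block a virus directly inside or at the surface of the cell it infects. The genes described here are 8 such factors of the mouse, Ifitm2, Ifitm3, Mx1, Mx2, Samhd1, Eif2ak2, Adar and Bst2. They were found by symbol among the 24062 gene entries of a bulk RNA-seq table, where all 8 of 8 listed names were present, and all 8 passed the filter on low values. The table holds 12 libraries, in 4 groups of 3, from macrophages grown out of bone marrow of C57Bl/6 mice and kept as primary cells at passage 1. Cells received C-178 together with CMA, CMA alone, C-178 alone, or no stimulation. The treatment lasted 2 h, and no genotype other than wild type was used. CMA is a small-molecule agonist of mouse STING, the adaptor at the endoplasmic reticulum that relays sensing of cytosolic DNA, and C-178 is a covalent inhibitor of the same protein. The comparisons ask how far the agonist raises these genes within the time given and how far the inhibitor holds them back. No source used here says how many animals the cells came from or whether the libraries of a group are separate cultures, so the p-values measure only the spread between these libraries.

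The 8 proteins act at successive steps of infection. IFITM2 and IFITM3 sit in endosomal and plasma membranes and hinder fusion of the viral with the cellular membrane. MX1 and MX2 are dynamin-like GTPases that act on incoming or replicating viral nucleoprotein. SAMHD1 breaks down deoxynucleoside triphosphates and so starves reverse transcription. EIF2AK2 (PKR) is a kinase that binds double-stranded RNA and halts translation by phosphorylating eIF2α, whereas ADAR edits adenosine to inosine in such RNA and keeps host transcripts from setting off that alarm. BST2 (tetherin) holds budding particles on the surface of the cell. STING activates the kinase TBK1 and the transcription factor IRF3, which switch on the gene of interferon β and some antiviral genes directly. Secreted interferon then acts through its receptor on transcription factors such as STAT2 and IRF9, which bind interferon-stimulated response elements. C57Bl/6 is a strain known to carry defective Mx alleles. RefSeq annotates Mx1 and Mx2 of this strain's reference genome as transcribed pseudogenes, and GENCODE M21 lists Mx1 as protein coding and Mx2 as a polymorphic pseudogene, so a transcript level of either gene here says nothing of an active protein.

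Promoter sequence of 6 of the 8 genes was taken from RefSeq (GRCm38.p6) and searched on both strands for the interferon-stimulated response element, written as GAAANNGAAA, for its shortened form GAAANNGAA, for the gamma-activated site TTCNNNGAA and for the NF-κB element GGGANNTTCC. Each full element match also counts as a match of the shortened form. Windows ran from 250 bases before to 50 bases after the annotated start. Of all 32851 mouse promoter windows of that length, 3.4% held the full interferon element, 8.6% the shortened form, 8.3% the gamma-activated site and 1.5% the NF-κB element. The windows of Bst2, Ifitm2, Ifitm3 and Eif2ak2 held the full element and 1 of 3 windows of Adar held the shortened form. That of Samhd1 held neither form of the interferon element. The stretches around these matches are shown because they carry the letters read by the interferon-activated complex, with the interferon element in capitals, each 5′ to 3′ on the strand of its gene.
Bst2, chr8:71537580-71537609, minus strand: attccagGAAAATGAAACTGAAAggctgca
Ifitm2, chr7:140955988-140956017, minus strand: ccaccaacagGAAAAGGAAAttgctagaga
Ifitm3, chr7:141010715-141010744, minus strand: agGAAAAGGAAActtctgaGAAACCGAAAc
Eif2ak2, chr17:78882533-78882562, minus strand: tccgccggGAAAACGAAACAGAAgagaacc
Adar, chr3:89730738-89730767, plus strand: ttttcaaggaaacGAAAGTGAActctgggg

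Bst2 held 2 overlapping full elements, which begin 130 and 124 bases before the start. Ifitm3 held 2 full elements, which begin at bases 3 and 20 of the transcribed side, and an NF-κB element on the opposite strand 116 bases before the start. Ifitm2 held 1 full element 46 bases before the start, and the element of Eif2ak2 began at base 19 after it. The match of Adar shown began at base 34 after the start, and a second one began 249 bases before that start. A match is a run of letters and not a shown binding site. The whole 250 bases before the start are printed for Bst2 and Ifitm2, the pair that holds the full element before the start.
Bst2, chr8:71537473-71537722, minus strand: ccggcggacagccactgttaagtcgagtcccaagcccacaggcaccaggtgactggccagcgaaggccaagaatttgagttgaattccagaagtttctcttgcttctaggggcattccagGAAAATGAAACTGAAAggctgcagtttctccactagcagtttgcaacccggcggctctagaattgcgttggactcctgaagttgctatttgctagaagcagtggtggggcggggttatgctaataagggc
Ifitm2, chr7:140955962-140956211, minus strand: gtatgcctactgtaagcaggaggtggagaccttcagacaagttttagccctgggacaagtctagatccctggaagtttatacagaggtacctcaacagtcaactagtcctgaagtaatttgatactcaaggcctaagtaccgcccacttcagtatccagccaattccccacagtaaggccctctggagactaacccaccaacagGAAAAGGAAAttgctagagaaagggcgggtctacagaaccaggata

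**Figure D1:**
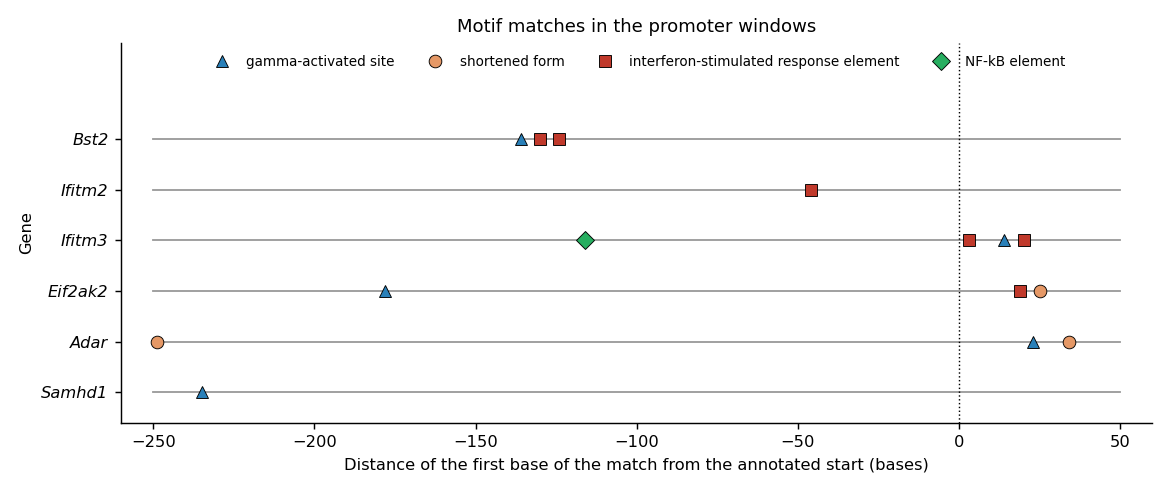
Position of motif matches (bases from the annotated start, horizontal) in the promoter windows of 6 genes, with 1 line per gene and 1 symbol per kind of motif; a full interferon-stimulated response element hides the shortened form at the same place. Bst2 and Ifitm2 have the full element before the start, at -130 and -124 and at -46, and Ifitm3 and Eif2ak2 have it after the start; of Adar the window with matches is drawn.

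The values are counts per gene divided by a factor for each library, here called normalised counts. Libraries held 7.766 to 36.438 M reads with C-178 plus CMA, 7.126 to 7.826 M with CMA, 7.049 to 28.476 M with C-178 and 13.907 to 17.449 M in unstimulated cells. Each of the 8 genes had at least 450 reads summed over a group, the fewest being those of Mx2 with C-178. Counting error was not set against the spread between libraries gene by gene. The libraries of C-178 plus CMA differed from each other far more than those of CMA did, with a chi-square per gene of 68.29 to 113.06 between pairs, against 2.46 to 9.89 among CMA libraries. The labels call the cells macrophages, whereas their extraction text speaks of MEF (embryonic fibroblasts). The 9 macrophage markers found (Csf1r, Cd68, Lyz2 and others) were all above 100 normalised counts on average in every group, and their sum was 337228 to 485441 with C-178 plus CMA and 341916 to 370068 in unstimulated cells. The sum of 10 fibroblast markers was 480 to 1055 with C-178 plus CMA, 1043 to 2019 with CMA, 911 to 1023 with C-178 and 699.7 to 744 without stimulation. That sum was higher in all 3 CMA libraries than in unstimulated cells, and its part in the results was not tested. Of 9 fibroblast markers tested for CMA against no stimulation 3 were called higher and 1 lower, against 19.4% and 17.9% of all tested genes. Fap had means of 349 with CMA and 2.85 without stimulation, Thy1 of 3.53 with CMA and 20.9 without stimulation, and Lum was at 0 in both groups. Sums over 7 neutrophil, 8 lymphoid and 6 dendritic cell markers were 594 to 1203, 689 to 1111 and 44.1 to 94.9 over the 12 libraries. In bulk RNA fewer cells of a type and less RNA per cell cannot be told apart.

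The genes of the Mx family showed the steepest response. Mx1 (chr16:97447035-97462907, minus strand, ENSMUSG00000000386.15) had 39488, 40819.5 and 17173 normalised counts with C-178 plus CMA, 50549, 62339 and 54039 with CMA, 703, 762 and 519 with C-178, and 1024, 657 and 771 in unstimulated cells. Every library with CMA was far above every library without it, and library 3 of C-178 plus CMA was the lowest of those with CMA. With CMA alone the mean was 68.1 times that of unstimulated cells (log2 difference of value + 1 of 6.11 ± 0.28, SE, adjusted p = 1.46e-09 in limma's test). Mx2 (chr16:97535308-97560900, plus strand, ENSMUSG00000023341.15), its neighbour on the chromosome, had 6391, 4956 and 2533 with C-178 plus CMA, 7176, 9079 and 8047 with CMA, 117, 109.9 and 74.1 with C-178, and 128, 97.3 and 108 in unstimulated cells. Its level was thus several times lower than that of Mx1 in every library, with the same order of groups. The CMA mean of Mx2 was 73.1 times the unstimulated mean (log2 difference 6.18 ± 0.27, adjusted p = 1.03e-09). Among 11440 tested genes these rises ranked 34 (Mx2) and 35 (Mx1) from the largest. Mx1 came to 0.392% to 0.443% of all normalised counts of a CMA library, where it ranked 19 to 22 among all genes by count, against 0.0063% to 0.00969% and ranks 2201 to 3244 in unstimulated cells. The 2 genes are similar in sequence, so the authors' counting may have split some reads between them.

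Adding C-178 to CMA lowered both Mx genes without bringing them near the level of unstimulated cells. The mean of Mx1 was 32493 ± 13285 with C-178 plus CMA and 55642 ± 6056 with CMA (SD, n = 3 each), 1.71 times lower (log2 difference -0.87 ± 0.28, adjusted p = 0.039). For Mx2 the means were 4627 ± 1950 with C-178 plus CMA and 8101 ± 953 with CMA, 1.75 times lower (log2 difference -0.90 ± 0.27, adjusted p = 0.0307). All 3 libraries of C-178 plus CMA lay below all 3 of CMA for each gene, but the size rests partly on library 3. Libraries 1, 2 and 3 stood at 71.0%, 73.4% and 30.9% of the CMA mean for Mx1 and at 78.9%, 61.2% and 31.3% for Mx2. Without library 3 the differences were -0.47 (adjusted p = 0.0967) and -0.52 (adjusted p = 0.0767), no longer past the threshold. The call of Mx1 was also lost without any 1 of the 3 CMA libraries, and that of Mx2 without CMA library 2 or 3. Against C-178 alone, the combination left Mx1 49.1 times and Mx2 46.1 times higher.

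Eif2ak2, the kinase that senses double-stranded RNA, responded next most strongly. The gene (chr17:78852564-78882573, minus strand, ENSMUSG00000024079.4) had 4573, 6779.7 and 2425 normalised counts with C-178 plus CMA, 8256, 10834 and 10024 with CMA, 1418, 2134 and 1271 with C-178, and 1730.3, 1367 and 1420.4 in unstimulated cells. All CMA libraries were above all others, and the 3 libraries of the combination spread over most of the gap between C-178 and CMA. CMA raised the mean 6.44 times over unstimulated cells (log2 difference 2.69 ± 0.29, adjusted p = 6.17e-06). With C-178 added the mean was 4592 ± 2178, against 9704 ± 1318 with CMA alone (SD, n = 3 each), 2.11 times lower (log2 difference -1.19 ± 0.29, adjusted p = 0.0118). This was the largest fall among the 8 genes in the main fit, and without library 3 it was -0.79 (adjusted p = 0.0225). Its 95% interval of -1.82 to -0.56 overlapped that of Mx2 (-1.49 to -0.31). With the trend on length and GC content removed, Mx2 fell by more (-1.06) than Eif2ak2 (-0.99). The call of Eif2ak2 was lost without CMA library 2 (adjusted p = 0.055) and in a fit of the 2 groups alone (adjusted p = 0.0601).

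Adar, the editing enzyme of the same kind of RNA, rose with CMA as well. Its row (chr3:89715022-89753446, plus strand, ENSMUSG00000027951.16) pools the constitutive and the interferon-induced transcript, so the isoforms were not told apart. It had 5807, 5880.1 and 3334 normalised counts with C-178 plus CMA, 5981, 8264 and 7588 with CMA, 1639, 1682 and 1382 with C-178, and 1725, 1453 and 1458 in unstimulated cells. The 3 libraries of the combination lay below those of CMA, 2 of them narrowly under the lowest CMA library. The rise with CMA over unstimulated cells was 4.71 times (log2 difference 2.23 ± 0.20, adjusted p = 9.72e-07). The difference between C-178 plus CMA and CMA was -0.57 ± 0.20 (adjusted p = 0.0524, 95% interval -1.0 to -0.14), which missed the threshold. It passed without CMA library 1 or without library 1 or 2 of the combination (adjusted p of 0.016 to 0.0406). Chrnb2, which overlaps Adar on the opposite strand, had 11.4 to 34.3 normalised counts over the 12 libraries, too few to alter the values of Adar by much.

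Samhd1, the nucleotide hydrolase, was already abundant before stimulation and rose moderately. The gene (chr2:157097533-157135265, minus strand, ENSMUSG00000027639.16) had 23155, 30767 and 16826 normalised counts with C-178 plus CMA, 35617, 42369 and 39955 with CMA, 12776, 16028 and 14591 with C-178, and 15399, 14546 and 13672 in unstimulated cells. Libraries of CMA were above all others, and library 3 of the combination came within a small margin of the highest libraries without CMA. CMA raised it 2.70 times over unstimulated cells (log2 difference 1.43 ± 0.19, adjusted p = 3.37e-05). C-178 plus CMA gave 23583 ± 6980 and CMA 39314 ± 3422 (SD, n = 3 each), 1.67 times lower (log2 difference -0.78 ± 0.19, adjusted p = 0.0106). The combination was still 1.63 times above C-178 alone (log2 difference 0.67 ± 0.19, adjusted p = 0.0183), a call lost in 5 of 18 alternative settings, among them leaving out C-178 library 1 (0.58, adjusted p = 0.0662) or 3 (0.68, adjusted p = 0.0511).

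Bst2, the tether of budding particles, went the other way when the inhibitor was added. The gene (chr8:71534255-71537456, minus strand, ENSMUSG00000046718.8) had 5964, 3518 and 6642 normalised counts with C-178 plus CMA, 2940.3, 2988 and 2742 with CMA, 1749, 1725.5 and 1668 with C-178, and 2171, 1784 and 1764 in unstimulated cells. Every library of the combination was above every CMA library, and library 2 was the closest to them. CMA raised Bst2 by 1.52 times over unstimulated cells (log2 difference 0.61 ± 0.19, adjusted p = 0.0214), a call lost in 5 of 17 alternative settings. Among these are quantile normalization and leaving out unstimulated library a or b or CMA library 1 or 2 (log2 differences of 0.28 and of 0.55 to 0.59). The mean was 5375 ± 1643 with C-178 plus CMA and 2890.2 ± 130.4 with CMA (SD, n = 3 each), 1.86 times higher (log2 difference 0.84 ± 0.19, adjusted p = 0.00727). Libraries 1 and 3 of the combination also held more of short genes in general. With the trend on length and GC content removed the difference was 0.44 (adjusted p = 0.0301). In a fit of the 2 groups alone the call was lost (adjusted p = 0.0613). Against C-178 alone the combination was 3.14 times higher (log2 difference 1.60 ± 0.19, adjusted p = 2.96e-05).

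Ifitm3 had a pattern like that of Bst2, and Ifitm2 showed no change that passed the test. Ifitm3 (chr7:141009586-141010770, minus strand, ENSMUSG00000025492.6) had 7871, 3724 and 8176 normalised counts with C-178 plus CMA, 3669, 4437 and 4099 with CMA, 2363, 1545 and 1709 with C-178, and 2066, 2226 and 2426 in unstimulated cells. Libraries 1 and 3 of the combination were far above the CMA libraries, and library 2 lay among them. CMA raised it 1.82 times over unstimulated cells (log2 difference 0.86 ± 0.25, adjusted p = 0.0148), a call lost in 3 of 17 alternative settings, which are quantile normalization and leaving out unstimulated library 1 or CMA library 2. The difference between C-178 plus CMA and CMA was 0.61 ± 0.25 (adjusted p = 0.0859, 95% interval 0.08 to 1.15) and did not pass the test. Without library 2 of the combination it was 0.98 (adjusted p = 0.000665). The difference between the combination and C-178 was 1.75 ± 0.25 (adjusted p = 0.000153). Ifitm2 (chr7:140954837-140955987, minus strand, ENSMUSG00000060591.9) had 3686, 4788 and 6133 with C-178 plus CMA, 4977, 4068 and 4067.5 with CMA, 3826, 3693 and 4340.1 with C-178, and 4939, 4604 and 4391 in unstimulated cells. Its groups overlapped in both main comparisons. CMA differed from no stimulation by -0.09 (adjusted p = 0.699, 95% interval -0.45 to 0.26), an interval that leaves out a rise of the size seen for Ifitm3. The 2 proteins are close paralogs, and reads that match both could have been counted for either.

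**Figure D2:**
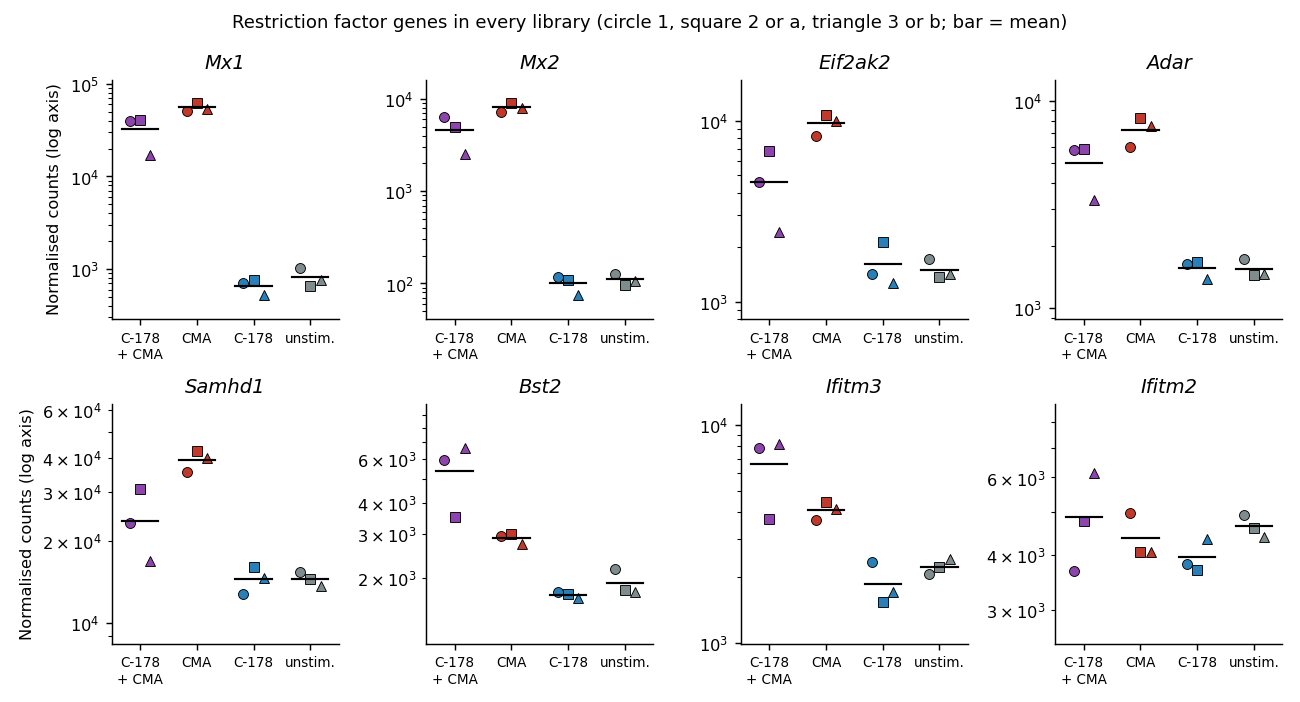
Normalised counts (log axis) of the 8 genes in each library, with groups from left to right C-178 plus CMA, CMA, C-178 and unstimulated; symbols give the library and bars the mean of 3 libraries. The Mx genes stand well over an order of magnitude apart with and without CMA, library 3 of the combination is the lowest of its group for Mx1, Mx2, Eif2ak2, Adar and Samhd1, and libraries 1 and 3 are the highest for Bst2 and Ifitm3.

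Counted over the comparisons, CMA raised 7 of the 8 genes over unstimulated cells and lowered none, where 19.4% of all 11440 tested genes were called higher and 17.9% lower. The groups did not overlap for those same 7 genes, against 61.8% of all tested genes. The median log2 difference was 1.83 over the 8 genes and -0.01 over all tested genes. For C-178 plus CMA against CMA, 4 genes fell (Mx1, Mx2, Eif2ak2 and Samhd1; 13.5% of all tested genes were called lower) and 1 rose (Bst2; 10.6% were called higher), with Adar, Ifitm3 and Ifitm2 not called. The groups did not overlap for 6 of the 8, against 35.5% of all genes. In a fit of these 2 groups alone none of the 8 was called, with adjusted p of 0.0601 (Eif2ak2) to 0.134 (Mx1) for the 5. Leaving out CMA library 2 also left none of the 4 falls past the threshold, and without CMA library 3 or without library 3 of the combination 2 of them stayed. For C-178 plus CMA 7 genes were higher than with C-178 (13.5% of all genes were called higher) and 7 were higher than in unstimulated cells (11.1%), in each case all but Ifitm2. The call of Samhd1 over unstimulated cells (log2 difference 0.66, adjusted p = 0.0222) was lost in 7 of 17 alternatives, among them leaving out any 1 unstimulated library or library 2 of the combination (0.44 to 0.70). These comparisons share libraries and are not independent.

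**Figure D3:**
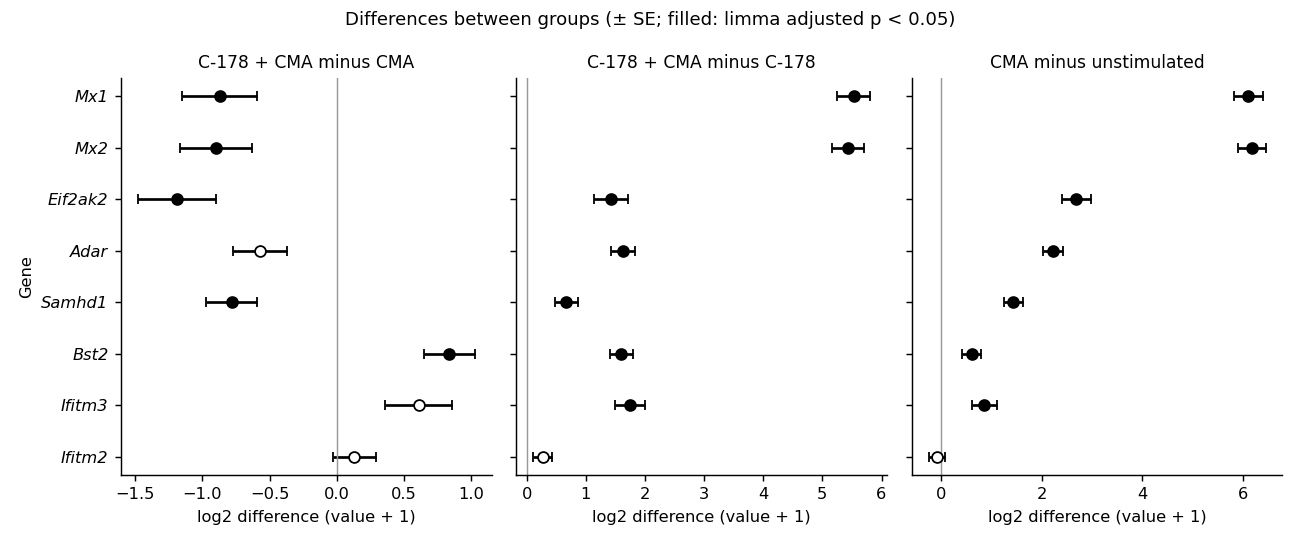
Log2 difference of value + 1 (horizontal, ± SE) for each gene in 3 comparisons, each on its own scale; filled circles passed limma's adjusted p of 0.05. Mx1 and Mx2 lie near 6 for CMA minus unstimulated and at -0.87 and -0.90 for C-178 plus CMA minus CMA, where Bst2 alone is filled on the positive side.

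C-178 alone moved none of the 8 genes past the threshold (0.0962% of all tested genes were called, 11 genes). The differences from unstimulated cells ran from -0.30 for Mx1 (95% interval -0.91 to 0.31) to 0.06 for Eif2ak2 (-0.57 to 0.70), so the interval of Mx1 still holds a difference of -0.91. At an unadjusted p under 0.05 the count was also 0, and edgeR and DESeq2 called 0 of the 8. With libraries weighted by their quality, Ifitm3 was called lower by 0.34 on the log2 scale (log2 difference -0.34, adjusted p = 0.0232).

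Whether the response to CMA differed with and without the inhibitor was tested by the interaction, the CMA effect in the presence of C-178 minus that in its absence. Bst2 was the only one of the 8 called (log2 0.99 ± 0.27, adjusted p = 0.0347), where 3.95% of all tested genes were called higher. This call was lost without any 1 of 9 single libraries, namely any unstimulated or CMA library, library 2 or 3 of C-178 or library 1 of the combination (adjusted p of 0.0565 to 0.0893). The CMA effect on Bst2 was 1.60 with C-178 and 0.61 without it. With the trend on length and GC content removed, these effects were 1.18 and 0.75. The interaction of Eif2ak2 was -1.26 (adjusted p = 0.0674), of Samhd1 -0.76 (adjusted p = 0.0759), of Mx2 -0.74 (adjusted p = 0.203), of Adar -0.59 (adjusted p = 0.17) and of Mx1 -0.57 (adjusted p = 0.333). For Ifitm3 it was 0.89 (adjusted p = 0.108) and for Ifitm2 0.37 (adjusted p = 0.29).

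The genes differ in length, and length went with how the libraries of the combination deviated. Exons cover 0.66 kb in Ifitm2, 0.68 kb in Ifitm3, 0.9 kb in Bst2, 3.61 kb in Mx2, 3.79 kb in Mx1, 5.11 kb in Eif2ak2, 8.12 kb in Adar and 9.15 kb in Samhd1. Over all tested genes with exons under 1 kb (211 genes), libraries 1, 2 and 3 of C-178 plus CMA differed from the CMA mean by a median of 0.32, 0.03 and 0.52 on the log2 scale, and over genes above 8 kb (2007 genes) by -0.31, -0.05 and -0.59. Library 2, where Bst2 and Ifitm3 were closest to CMA, thus showed almost no such gradient against CMA. Libraries 1 and 3 showed a marked one. Other comparisons held a trend too. Over all tested genes with a length, the rank correlation (Spearman) of length and log2 difference was 0.35 for C-178 against unstimulated cells. It was -0.35 for the combination against CMA, -0.3 against C-178 and -0.18 against unstimulated cells. For CMA against unstimulated cells it was 0.15, and for the interaction -0.4. With the trend on length and GC content removed from each library, an alternative added after the data were seen, Bst2 was still higher with C-178 plus CMA than with CMA (log2 difference 0.44, adjusted p = 0.0301), and Ifitm3 was at 0.29 (adjusted p = 0.256). The interaction of Bst2 was then 0.44 (adjusted p = 0.167) and not called. Over C-178 alone the combination was then higher by 1.18 for Bst2 (adjusted p = 1.4e-05) and by 1.26 for Ifitm3 (adjusted p = 9.48e-05). Under the same setting the falls were -0.87 for Mx1 (adjusted p = 0.0492), -1.06 for Mx2 (adjusted p = 0.0208), -0.99 for Eif2ak2 (adjusted p = 0.0204), -0.63 for Samhd1 (adjusted p = 0.00556) and -0.59 for Adar (adjusted p = 0.0208), so all 5 longer genes passed.

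**Figure D4:**
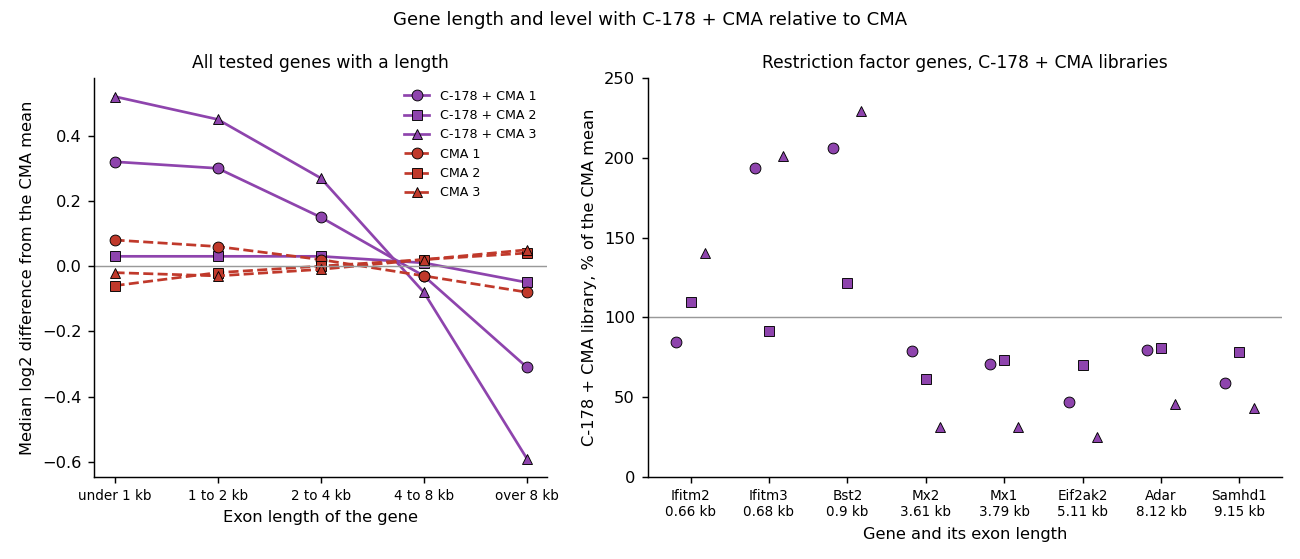
Left, median log2 difference of each C-178 plus CMA and CMA library from the CMA mean (vertical) by class of exon length; right, the level of each gene in the 3 libraries of the combination as a percentage of the CMA mean, ordered by exon length, with 100% marked. Libraries 1 and 3 slope from 0.32 and 0.52 for genes under 1 kb down to -0.31 and -0.59 above 8 kb, and the 3 genes with less than 1 kb of exons hold all points above 100%.

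Per kilobase of exon, the order of the genes changed with CMA. With C-178 plus CMA, Ifitm3 had 9720.2 ± 3668 normalised counts per kb, Mx1 8585 ± 3509.8, Ifitm2 7434 ± 1871 and Bst2 5952 ± 1820 (SD, n = 3), 4 neighbours that do not differ beyond their spread, followed by Samhd1, Mx2, Eif2ak2 and Adar. With CMA, Mx1 led with 14701 ± 1600.1 per kb, followed by Ifitm2 at 6673 ± 802 and Ifitm3 at 6000.2 ± 568, which lay within their spread of each other, then Samhd1 at 4297 ± 374, Bst2 at 3201 ± 144, Mx2 at 2242 ± 264, Eif2ak2 at 1898 ± 258 and Adar at 897 ± 144. With C-178 the order ran from Ifitm2 at 6036 ± 522 per kb through Ifitm3 at 2761 ± 638 down to Mx2 at 27.8 ± 6.35. In unstimulated cells Ifitm2 led with 7091 ± 422 per kb, ahead of Ifitm3 at 3303 ± 267, Bst2 at 2111 ± 254 and Samhd1 at 1589 ± 94.4. Eif2ak2 (295 ± 38.3), Mx1 (216 ± 49.7) and Adar (190.4 ± 19.2) followed, the last pair within their spread, and Mx2 was lowest at 30.7 ± 4.28. Resting macrophages thus carried the entry and release factors and Samhd1 at the highest levels per length, and Mx1 moved from the rank of 6 without stimulation to 1 with CMA.

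Correlations across the 12 libraries are given as a description, over libraries that share 4 treatments. Mx1, Mx2, Adar, Eif2ak2 and Samhd1 correlated with each other at r of 0.90 to 1.00 (Pearson, log2 of value + 1). Bst2 and Ifitm3 correlated at 0.95 with each other. With those 5 genes Ifitm3 correlated at 0.50 (Samhd1) to 0.82 (Mx2) and Bst2 at 0.42 (Samhd1) to 0.76 (Mx1 and Mx2). Ifitm2 stayed at or below 0.36 with every other member. The genes most like each member over the same libraries were Mx2 and Rsad2 (viperin, an antiviral radical SAM enzyme) for Mx1, and Mafk and Mx1 for Mx2, each at 0.999. They were Trim30a (0.997) and Samd9l (0.996) for Eif2ak2, Gm6548 (0.998) and Zbtb5 (0.997) for Adar, and Zcchc6 and Elf1 (both 0.996) for Samhd1. Bst2 was most like Plin2 (0.979) and Grn (0.97), Ifitm3 most like Idnk (0.986) and Tspo (0.979), and Ifitm2 most like Usp21 (0.963) and Trub1 (0.923).

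A further 36 genes with a known antiviral effector role, such as the OAS, IFIT, GBP, TRIM and Schlafen proteins, were followed beside the members. With CMA 32 of 36 rose over unstimulated cells and none fell, with a median log2 difference of 2.39, against -0.01 over all tested genes. Of all tested genes 19.4% were called higher and 17.9% lower in that comparison. Gbp5 and Gbp2, interferon-induced GTPases of the guanylate-binding family, had means of 32981 and 32366 with CMA and of 134 and 526 in unstimulated cells. Oasl1, an oligoadenylate synthetase-like protein, had a mean of 14965 with CMA and of 228 without stimulation, and Isg20, an exonuclease, 2697 and 121. With C-178 plus CMA 15 of the 36 fell against CMA and none rose, with a median of -0.64. There 13.5% of all tested genes were called lower and 10.6% higher. Gbp5 fell by 1.99 (adjusted p = 0.000608), Gbp2 by 1.35 (adjusted p = 0.00128) and Isg20 by 0.73 (adjusted p = 0.00492) on the log2 scale, and Oasl1 differed by -0.36 (adjusted p = 0.127). Against C-178 alone 30 of 36 were higher with the combination, where 13.5% of all tested genes were called higher.

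**Figure D5:**
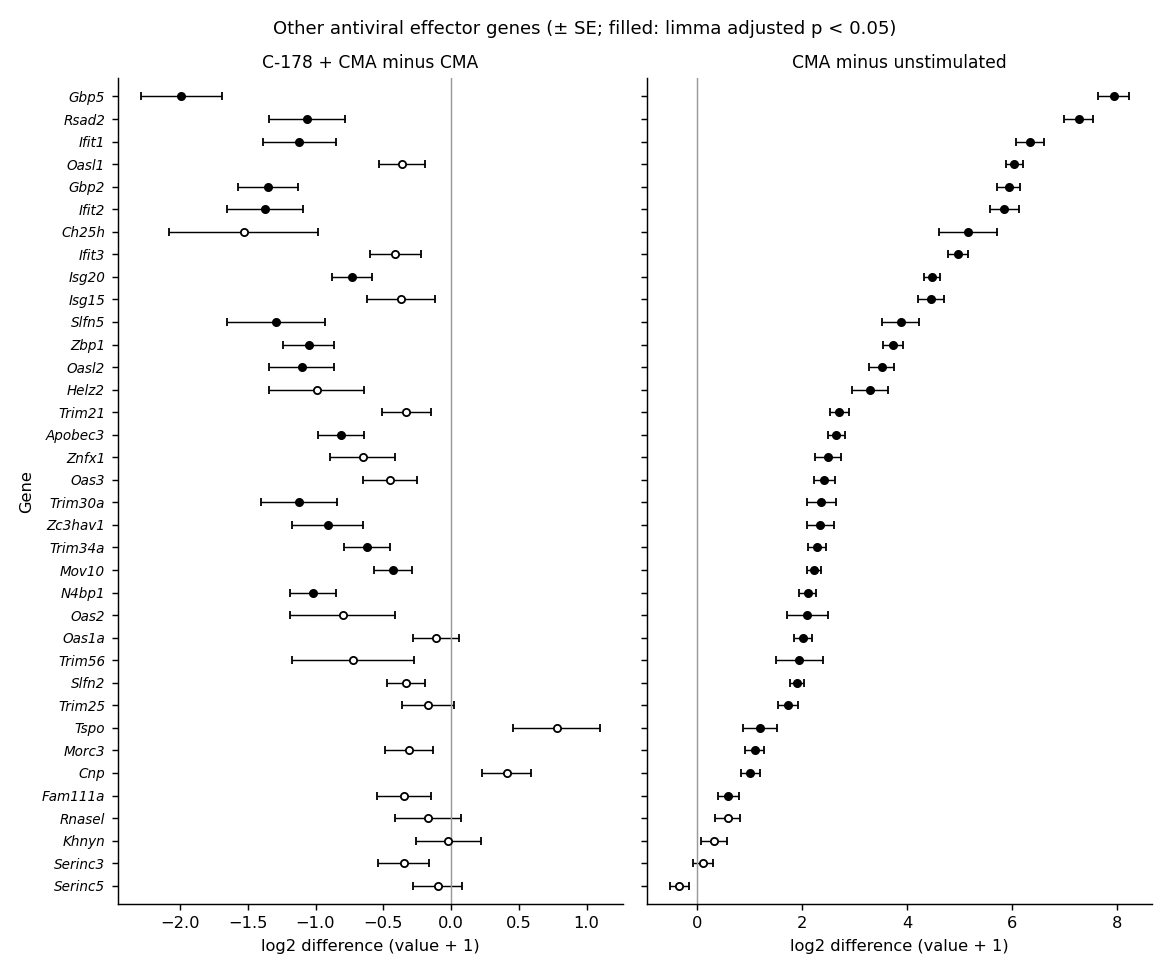
Log2 difference of value + 1 (± SE) of 36 other antiviral effector genes for C-178 plus CMA minus CMA and for CMA minus unstimulated, ordered by the second; filled circles passed limma's adjusted p of 0.05. With CMA 32 are filled, all above 0, where 19.4% of all tested genes were called higher. With the inhibitor added 15 are filled, all below 0, where 13.5% were called lower.

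Genes of the interferon pathway were affected unequally, and whether the 8 genes depended on that pathway within 2 h was not tested. Ifnb1, the gene of interferon β, had 54.0, 40.0 and 84.0 normalised counts with C-178 plus CMA, 1424, 2210.5 and 1629.9 with CMA, 0.717, 3.01 and 2.91 with C-178 and 0 in each unstimulated library. Its mean was 29.6 times lower with C-178 plus CMA than with CMA (log2 difference -4.90 ± 0.36, adjusted p = 3.73e-06), whereas no member of the 8 was more than 2.11 times lower. Stat2, a transcription factor of the interferon receptor, rose with CMA by 2.34 on the log2 scale over unstimulated cells, and Irf9, its DNA-binding partner, by 1.21. With C-178 plus CMA they differed from CMA by -0.38 (Stat2, adjusted p = 0.197) and -0.24 (Irf9, adjusted p = 0.101). Ifnar1, the receptor chain, fell by 0.91 with CMA (adjusted p = 1.52e-05), and Ifnar2 differed by -0.22 (adjusted p = 0.207). Of the 14 genes on this list 10 rose and 1 fell with CMA, where 19.4% of all tested genes were called higher and 17.9% lower. Among them the transcription factor Irf1 had a mean of 12046 with CMA and of 854 without stimulation. The feedback regulator Usp18 had 7649 and 404, and the other one, Socs1, had 2197 and 15.6. In the comparison of C-178 plus CMA with CMA 4 of 14 fell, Irf1 among them by 0.83 (adjusted p = 0.00329). Of all tested genes 13.5% were called lower there.

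Genes that work with single members were followed as well. Among 11 genes around eIF2α phosphorylation, the target step of Eif2ak2, 4 rose and 1 fell with CMA, counts to be read against the 19.4% and 17.9% of all tested genes. Ppp1r15a (GADD34), the phosphatase subunit that reverses this phosphorylation, had a mean of 444 with C-178 plus CMA, 5257 with CMA, 231 with C-178 and 190.2 without stimulation. Its fall with the inhibitor was 3.57 on the log2 scale (adjusted p = 3.95e-09), larger than that of any of the 8 genes. Its constitutive relative Ppp1r15b rose by 1.62 with CMA and fell by 0.96 with the inhibitor added. Eif2s1, which encodes eIF2α, rose by 0.93 with CMA, and Eif2ak3 (PERK), another eIF2α kinase, fell by 1.19. Among 12 genes of deoxynucleotide supply, on which Samhd1 acts, 1 rose and 1 fell with CMA, against the same shares of all genes. Dck, the deoxycytidine kinase of the salvage route, had a mean of 3246 with C-178 plus CMA, 4501 with CMA, 723 with C-178 and 722 without stimulation, a rise of 6.24 times with CMA (adjusted p = 4.13e-08). Tk2 fell by 0.50, and Dguok (-0.45, adjusted p = 0.0618) and Rrm2b (0.44, adjusted p = 0.0789) did not pass.

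Relatives of the members were also listed, to be read against those same shares. Of the other Ifitm genes 2 of 5 were tested. Ifitm1 had a mean of 88.5 with C-178 plus CMA, 103 with CMA, 108 with C-178 and 110.2 without stimulation, and Ifitm6 had 35.8, 20.45, 19.4 and 19.1 in the same order. Neither was called in any comparison of groups. Of the deaminases related to Adar, 4 of 7 were tested, all with means below 50 normalised counts. Adat3, with means of 3.55 with CMA and 16.7 without stimulation, fell (log2 difference -2.36, adjusted p = 0.0313), and Adarb1, Adat1 and Adat2 were not called. A single read in a CMA library equals 1.65 to 1.97 normalised counts, so the fall of Adat3 rests on few reads near the floor. Among 8 tested genes of dynamin-like GTPases, the wider family of the Mx proteins, Opa1 (0.48), Dnm1l (0.44) and Atl3 (0.53) rose slightly with CMA, and Atl2 (0.33, adjusted p = 0.112) did not pass. Among 12 genes of nuclear silencing of viral DNA, 6 rose and 1 fell with CMA, and with the inhibitor added 7 fell and 1 rose against CMA. In the latter comparison 13.5% of all tested genes were called lower and 10.6% higher. Daxx, a histone chaperone of PML bodies, had a mean of 9642 with CMA and 585 without stimulation, and Pml, the scaffold of those bodies, 6672 and 1171. Smc5, of the complex that silences extrachromosomal DNA, had 2186 and 443, and Pphln1, of the HUSH complex, 1759 and 641. With C-178 plus CMA these 4 fell by 0.72, 0.78, 1.43 and 1.05 against CMA on the log2 scale.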

How the data were processed

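Polyadenylated RNA was sequenced with a stranded TruSeq kit, per the labels' protocols. The submitters' processing notes name the mm10 build, Bowtie2 2.2.1 and, for a step not stated, limma 3.18.13. How reads were counted, and whether by strand, is not given in the sources read. The deposited signal is counts divided by a factor per library: steps of each column gave whole reads for 100% of values (tolerance 0.01). Cook's distances (12 columns) were left aside. Genes above 10 in at least 3 of 12 libraries (11440) were fitted as log2(value + 1) with limma 3.58.1 (lmFit, eBayes with trend) under R 4.3.3 over all 12 libraries, with Benjamini-Hochberg adjustment per comparison and calls at 0.05. A fold is a ratio of group means. On this log2 scale changes of low genes are understated. edgeR 4.0.16 (quasi-likelihood) and DESeq2 1.42.0 on the recovered reads, other pseudocounts, filters, scalings, weights and left-out libraries were alternatives. The method was tested on simulated data for CMA against unstimulated cells only, with an equal spread in every group. That test does not cover the wider spread among the libraries of C-178 plus CMA. Tables and plots were made with matplotlib 3.10.9, numpy 2.4.6 and pandas 2.3.3 in Python 3.11.15.

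The members and lists were chosen with earlier results of these data known. Named were all 8 members, the 2 genes most correlated with each, the 4 genes of each list with the smallest adjusted p for CMA against no stimulation (all of them where up to 5 were tested), and Ifnb1, Stat2, Irf9, Ifnar1 and Ifnar2. A further gene that the rule names is not reported here. Coordinates and exon lengths come from GENCODE M21 and promoters from RefSeq. Because 2 unstimulated columns have the same heading, these libraries are called 1, a and b. Library numbers were taken to pair the C-178 group with the combination, since residuals of like-numbered libraries had r of 0.45, 0.43 and 0.26 (each over 0.1). Libraries of unlike number were not compared, so these correlations cannot establish a pairing. Within groups, deviations of library 2 correlated with gene length (Spearman) at 0.36 for C-178 and 0.46 for the combination. Those of library 3 did so at -0.27 and -0.38, and those of library 1 at -0.2 and -0.02. The part of this trend in the residual correlations was not tested. No label states such a pairing, and the main fit did not use it. Other groups were not paired.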

Additional observations from a re-analysis of the deposited data

Results flagged for a closer look

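For Bst2 the test of the difference between the CMA effect with and without C-178 passed the threshold, with an interaction of 0.99 on the log2 scale (limma, adjusted p = 0.0347). All 3 libraries of C-178 plus CMA (5964, 3518 and 6642 normalised counts) were above all 3 of CMA (2940.3, 2988 and 2742). The value was 0.44 (adjusted p = 0.167) with the trend on length and GC content removed, and 0.81 to 1.27 when single libraries were left out. The call was lost in 9 of 12 such fits and in 11 of 22 alternatives in all, among them the fit with no filter (adjusted p = 0.0546).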

How the results depend on the processing

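Mx1, Mx2, Eif2ak2, Adar and Samhd1 kept their call for CMA over unstimulated cells in all 17 alternatives. For the combination of C-178 and CMA over C-178, all called members but Samhd1 kept theirs in all 18. Ifitm2 was not called there (adjusted p = 0.238) and gained a call in 1 alternative, without library 1 of the combination (0.46, adjusted p = 0.0349). The falls with C-178 plus CMA against CMA were less firm, with Mx1 lost in 10, Mx2 in 7, Samhd1 in 4 and Eif2ak2 in 2 of 18. For these results the cause was not tested.

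Of members called with C-178 plus CMA against CMA, the number lower was 0 with only the groups compared, 1 with quantile normalization and 2 with array weights, and the number higher was 0 with only the groups compared and 2 with edgeR and with DESeq2. With a replicate block, in a fit of the groups compared, 1 member was called lower; the residual correlations of CMA and C-178 plus CMA libraries (-0.14, 0.18 and -0.16) did not pair them. Between the combination and C-178 the block changed no member's call. Their pairing was taken from residual correlations alone and is not established. Genes called in C-178 plus CMA against CMA were 261 higher and 593 lower with only the groups compared, and 284 and 747 with the replicate block. With only the groups compared, genes called higher were 738 for the combination against C-178 and 809 against unstimulated cells.

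For CMA against unstimulated cells, array weights gave 3672 genes higher and 3708 lower, only the groups compared gave 3075 lower, and quantile normalization, which moved the median of all genes by -0.115, called 1 member lower (Ifitm2, -0.57). For C-178 against unstimulated cells, genes higher and lower were 17 and 1 with quantile normalization, 823 and 1026 with array weights (1 member lower), 27 and 4 with only the groups compared and 34 and 4 with DESeq2, with 1 lower in edgeR. For the interaction, genes higher were 293 with no filter, 1438 with array weights, 767 with DESeq2 and 279 with the length and GC trend removed. Members higher were 0 with no filter, 2 with array weights and 0 with the trend removed, and 2 were lower with array weights and with DESeq2.

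With single libraries left out, genes called in C-178 plus CMA against CMA were 586 to 2182 higher and 709 to 2534 lower, and members 1 to 2 higher and 0 to 5 lower. For C-178 against unstimulated cells 4 to 10 genes were higher and 0 to 3 lower. For the interaction 122 to 1681 genes, and 0 to 2 members in each direction, were called.

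Signs turned only in differences that were not called. Ifitm2 was -0.27 for C-178 plus CMA against CMA, -0.21 against C-178, -0.28 against unstimulated cells and -0.19 for the interaction with the trend removed, -0.0015 against C-178 and -0.26 against unstimulated cells with quantile normalization, and -0.083 against unstimulated cells with array weights. For C-178 against unstimulated cells, Samhd1 was 0.006 and Adar -0.0038 with quantile normalization, Eif2ak2 -0.06 and Adar -0.045 with array weights, and Adar -0.0087 and Bst2 0.008 with the trend removed. With single libraries left out, Ifitm2 ran from -0.05 to 0.32 for the combination against CMA and from -0.14 to 0.22 against unstimulated cells. In the same way, for C-178 against unstimulated cells, Mx2 ran from -0.28 to 0.041, Samhd1 from -0.089 to 0.075, Eif2ak2 from -0.16 to 0.22 and Adar from -0.033 to 0.11.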
